A study of Mus musculus with 12 samples.

Results

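Transcripts of the lysosomal membrane, of the proton pump that acidifies the lysosome and of the transcription factors that control lysosomal genes were examined in sorted mouse bone-marrow derived macrophages. The rule took protein-coding genes whose symbols begin with Atp6v0, Atp6v1 or Atp6ap, with 20 further genes chosen by name, and found 42 of the 24728 genes of the count table. By role these were 11 genes with the prefix of the V1 sector of the vacuolar proton pump (V-ATPase), 8 genes of its V0 sector, 2 accessory subunits, 7 membrane proteins, 8 luminal enzymes, granulin with its sorting receptor, and the 3 factors Tfeb, Tfe3 and Mitf. The remaining gene, Atp6v1fnb, is a neighbour of Atp6v1f that shares the prefix and is not a pump subunit.

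Lysosomes digest material that a cell takes up, and in macrophages they receive phagocytosed debris, including myelin, the fatty insulation of axons made by oligodendrocytes. The V-ATPase pumps protons into the lumen: the V1 sector in the cytosol splits ATP and the V0 sector in the membrane carries the protons. TFEB, TFE3 and MITF are helix-loop-helix factors that bind E-box elements at lysosomal genes, and phosphorylation by mTORC1 at the lysosome surface holds TFEB in the cytoplasm, so their activity depends on location as well as on the amount of transcript.

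The series asks how macrophages reuse myelin in brain tumors. The 12 libraries came from dTomato+ macrophages sorted after ex vivo assays and fell into 4 groups of 3: Control, Full Tumor, Myelin Alone and, as the fourth, Tumor without Myelin. Each mn number in the labels, 957, 958 or 016, occurred once in a group, and values below are given in that order of numbers. All groups share the dTomato+ label, sorting and bone-marrow origin. The design text names PDGFb-driven mouse tumors with knockout of Ink4a/Arf or knockdown of p53, and the samples do not tell which was used. The labels do not say what the Control macrophages were given, how long any exposure lasted, what drives dTomato, the age or strain of the mice, what mn stands for, or whether the libraries of a group came from separate animals. P-values therefore measure the spread between these libraries, which may be technical.

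Libraries totalled 17071673 to 21689624 counts. The summed level of 10 macrophage markers was 13994 to 19181 CPM, counts scaled to a common library size, in the 12 libraries. Neutrophil marker sums were 15.8 to 266 CPM in the libraries numbered 016, highest in Control, and 10.3 to 114 CPM in the others, with Ly6g at or near 0 throughout. Mpo and Elane were at 111 and 40.9 CPM in Control 016, and at 3.87 to 27.2 and 3.02 to 11.8 CPM in the other libraries of 016. In the libraries of 957 and 958 Mpo was at most 1.10 CPM and Elane at most 0.528 CPM. Other markers of that list did not follow the number in this way. S100a8, S100a9 and Ngp were higher in 016 than in 958 in Control and Myelin Alone, and lower in the tumor groups. In Full Tumor S100a9 was at 0.425 CPM in 016 and 18.9 CPM in 958, and Ngp at 0 and 29.7 CPM. Microglial marker sums were 414 to 655 CPM in Control, 657 to 684 CPM in Myelin Alone, 828 to 1135 CPM in Tumor without Myelin and 733 to 976 CPM in Full Tumor. The single markers differed: Siglech stayed under 1 CPM and P2ry12 was at most 3.58 CPM. Tmem119 was at 0.604 to 2.55 CPM in Control and reached 28.4 CPM in Tumor without Myelin 016 and 14.8 CPM in Full Tumor 016. Fcrls was at 7.65 to 19.9 CPM in Control, 72.4 to 142 CPM in Tumor without Myelin and 52.9 to 101 CPM in Full Tumor. Cx3cr1 overlapped between Control and Full Tumor. The part of these markers in the results below was not tested. In bulk libraries, fewer cells of a type and less RNA per cell cannot be told apart.

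Promoter sequences are shown because the E-box is the element by which TFEB and its relatives recognise lysosomal genes. RefSeq windows (GRCm38.p6, 250 bases before to 50 bases after the start of transcription) were matched for 35 of the 42 members. The motif TCACGTG, searched on both strands, occurred in at least 1 window of 10 of these 35 members, or 28.6%, against 6.51% of 11766 protein-coding genes of the count table and 4.29% of all 27025 genes with a window. These were Atp6v0b, Atp6v0d1, Atp6v0e, Atp6v1a, Gaa, Naglu, Sgsh, Cln3, Lamp1 and Mcoln1. The windows of Scarb2, Grn, Tfeb, Tfe3 and Mitf held no such letters. Lamp1 had 4 matches, at 61, 45, 28 and 15 bases before the start, Mcoln1 had matches at 71 and 45 bases before it, and Atp6v0d1 had a match at 3 bases before it; the E-box core CACGTG lies inside each match. The 3 windows follow, 5′ to 3′ on the strand of the gene, with the matches in capitals. They are chr8:13158911-13159210 on the plus strand for Lamp1, chr8:3500269-3500568 on the plus strand for Mcoln1 and chr8:105566015-105566314 on the minus strand for Atp6v0d1.
Lamp1: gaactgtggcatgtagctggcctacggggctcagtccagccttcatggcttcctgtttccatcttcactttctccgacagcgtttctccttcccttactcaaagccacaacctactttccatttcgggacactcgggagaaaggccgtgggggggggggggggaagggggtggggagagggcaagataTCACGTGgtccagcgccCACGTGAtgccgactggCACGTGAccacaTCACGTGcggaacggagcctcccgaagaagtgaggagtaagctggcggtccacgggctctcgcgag
Mcoln1: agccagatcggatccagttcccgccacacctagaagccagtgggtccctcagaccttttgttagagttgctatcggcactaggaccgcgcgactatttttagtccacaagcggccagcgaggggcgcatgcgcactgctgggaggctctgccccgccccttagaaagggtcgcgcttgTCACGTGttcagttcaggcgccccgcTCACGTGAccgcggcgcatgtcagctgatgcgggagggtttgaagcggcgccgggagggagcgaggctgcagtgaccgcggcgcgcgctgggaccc
Atp6v0d1: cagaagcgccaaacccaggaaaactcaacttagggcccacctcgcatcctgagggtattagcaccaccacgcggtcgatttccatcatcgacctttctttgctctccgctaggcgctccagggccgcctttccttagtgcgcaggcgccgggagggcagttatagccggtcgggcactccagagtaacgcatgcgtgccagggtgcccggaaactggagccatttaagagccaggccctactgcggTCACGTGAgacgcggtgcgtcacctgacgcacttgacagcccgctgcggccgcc
Capitals of 8 letters are matches that read TCACGTG on both strands. A match describes these letters and no binding was measured.

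Of the 42 members, 39 passed the filter on low counts and were tested, 37 of them at a mean of at least 10 CPM. Atp6v0e2 and Atp6v1g2 were tested at means of 1.14 and 2.68 CPM. The untested members were Atp6v1b1 and Atp6v1c2, alternative B and C subunits, and Atp6v1fnb, with at most 2, 3 and 3 counts in a library, which is no more than the 3 counts that a count of 0 allows. Per kilobase of annotated exon, the mean level over the 12 libraries was highest for Lamp1 at 708 CPM per kilobase, Grn at 689.5, Atp6v1g1 at 502, Laptm5 at 468 and Atp6ap1 at 463. On the same scale the factors were low: Tfe3 reached 14.4, Tfeb 7.04 and Mitf 5.22 CPM per kilobase. Among paralogous V0 subunits, Atp6v0d2 was at 328 and Atp6v0d1 at 223 CPM per kilobase, and Atp6v0a1 was at 28.7 against 7.21 for Atp6v0a2. Of the B subunits, Atp6v1b2 was at 282 CPM per kilobase and Atp6v1b1 was not detectable at this depth. The cDNA was primed from the poly(A) tail, so a level per exon length is a coarse scale.

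The question for the groups was whether myelin, tumor material or both moved these transcripts. With group as the only term, edgeR's quasi-likelihood test called 0 of 39 members in each of 6 contrasts, and the background was 0% of 13414 genes in each. At an unadjusted p under 0.05 the members numbered 3 for Myelin Alone minus Control, 4 for Tumor without Myelin minus Control, 3 for Full Tumor minus Control, 1 for Full Tumor minus Tumor without Myelin, and 0 for both Full Tumor minus Myelin Alone and the interaction of myelin and tumor. Over all tested genes the shares at that p were 2.08%, 4.09%, 4.17%, 1.2%, 3% and 1.14% in the same order. DESeq2 called 1 member, Scarb2, in Full Tumor minus Control (adjusted p = 0.0284), where it called 46 genes in all. It called 0 members in the other 5 contrasts, and limma-voom called 0 in all 6. Same-numbered libraries deviated together, so a fit with the mn number as a block was set beside the first. The 3 contrasts with Control share its 3 libraries.

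With the block, 2 of 39 members (5.13%) were called for Full Tumor minus Control, both higher, where 0.813% of all tested genes were called, 0.634% higher and 0.179% lower. They were Scarb2 and Grn. No member was called for Myelin Alone minus Control (background 0.0373%, of which 0.00745% higher and 0.0298% lower), Tumor without Myelin minus Control (0.745%, of which 0.559% higher and 0.186% lower), Full Tumor minus Tumor without Myelin (0%), Full Tumor minus Myelin Alone (0.112%, of which 0.104% higher and 0.00745% lower) or the interaction (0%). Members at an unadjusted p under 0.05 with the block numbered 9 (23.1%) in Full Tumor minus Control, against 9.83% of all tested genes. In the other contrasts, in the order just given, they were 5, 8, 3, 2 and 2, or 12.8%, 20.5%, 7.69%, 5.13% and 5.13% of members, against 6.04%, 9.48%, 3.88%, 7.42% and 2.93% of all tested genes. The members' share was below that of all genes in Full Tumor minus Myelin Alone.

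**Figure D1:**
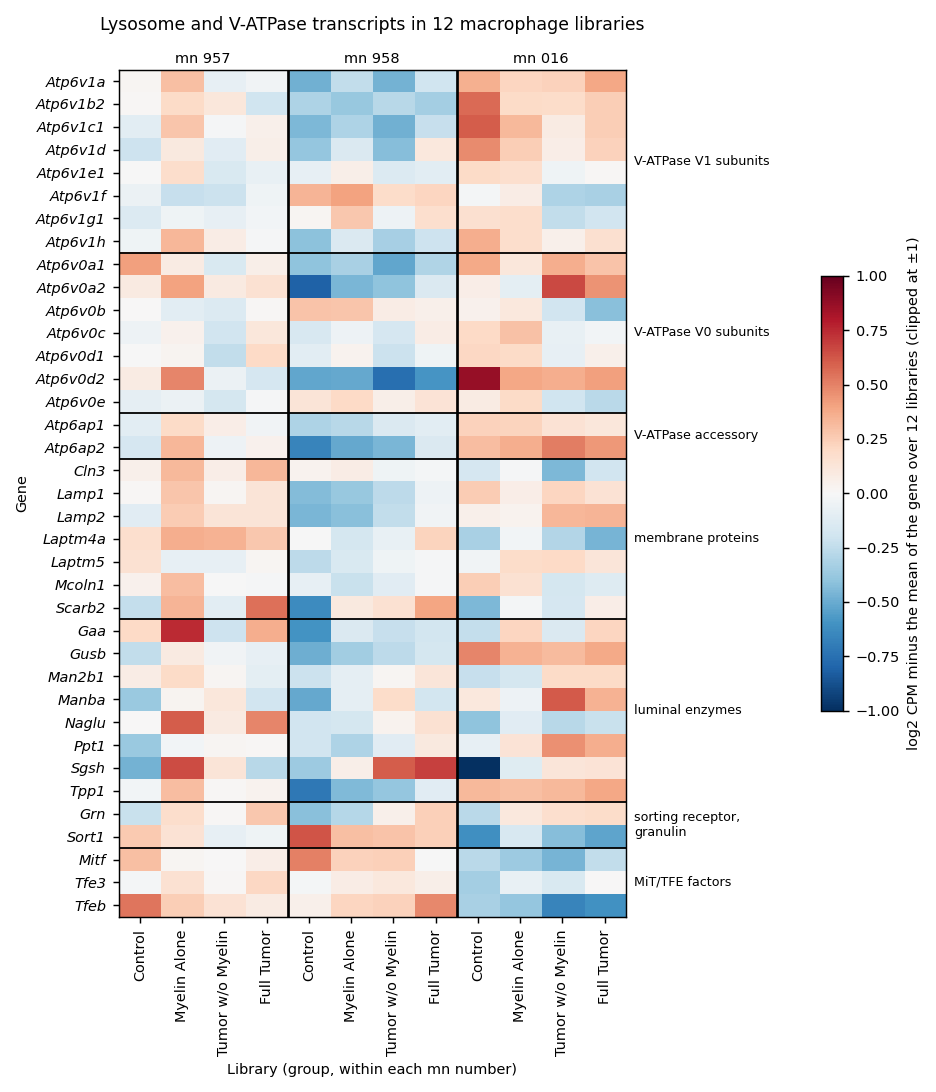
Heat map of the 37 tested members with a mean of at least 10 CPM (rows, by role) in the 12 libraries (columns, by mn number and then group). Colour is log2 CPM minus the gene's mean over the 12 libraries, clipped at 1 either way. Most V-ATPase rows change colour between the blocks of numbers 958 and 016, while Scarb2 and Grn are lowest in the Control columns.

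Scarb2 encodes LIMP-2, the membrane protein that carries glucocerebrosidase to the lysosome, and lies at chr5:92441314-92506833 on the minus strand (mm10, ENSMUSG00000029426). Its level was 164, 125 and 142 CPM in Control, 245, 207 and 191 CPM in Myelin Alone, 180.1, 215 and 172 CPM in Tumor without Myelin, and 284, 254 and 203 CPM in Full Tumor. Every library of the other 3 groups was above every Control library. Scarb2 rose in Full Tumor against Control, with a log2 difference of 0.77 ± 0.13 (SE) in the blocked fit (edgeR adjusted p = 0.0174). With group only the difference was 0.78 ± 0.17 at an adjusted p of 0.329. The values for the other contrasts with Control were 0.57 ± 0.13 in Myelin Alone (adjusted p = 0.273 with the block) and 0.40 ± 0.13 in Tumor without Myelin (adjusted p = 0.264). Full Tumor exceeded Tumor without Myelin by 0.37 ± 0.13 in the same fit, which did not pass (unadjusted p = 0.0127, adjusted p = 1.0). A test for any difference among the 4 groups called Scarb2 with the block (adjusted p = 0.0496, background 0.999%) as the single member.

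Grn encodes progranulin, the precursor of the lysosomal granulins, and lies at chr11:102430315-102437048 on the plus strand (mm10, ENSMUSG00000034708). Its levels were 2023, 1768 and 1967 CPM in Control, 2668, 1940.2 and 2544 CPM in Myelin Alone, 2385, 2455 and 2660.4 CPM in Tumor without Myelin, and 2849, 2795 and 2692 CPM in Full Tumor. The Full Tumor libraries lay above all 9 others, and 1 Myelin Alone library, number 958, was within the range of Control. Grn rose in Full Tumor against Control, with a log2 difference of 0.54 ± 0.09 in the blocked fit (edgeR adjusted p = 0.0233, against 0.469 with group only). Against Control it was 0.38 ± 0.09 higher in Tumor without Myelin (adjusted p = 0.109 with the block) and 0.31 ± 0.09 higher in Myelin Alone (adjusted p = 0.605). The annotated span of Grn overlaps Fam171a2 on the opposite strand, and without a stated strand setting the reads of overlapping genes cannot be told apart. The spans of 18 of the 42 members overlap another annotated gene.

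Both calls depended on single libraries of numbers 957 and 958, and that of Grn also on Control 016. With the block, Scarb2 missed the threshold without Control 957 (edgeR adjusted p = 0.0837), Control 958 (0.116), Full Tumor 957 (0.109) or Full Tumor 958 (0.114), at log2 differences of 0.64 to 0.80. Grn missed it without Control 957 (0.112), Control 958 (0.123), Control 016 (0.0555), Full Tumor 957 (0.103) or Full Tumor 958 (0.163), at differences of 0.46 to 0.54. Without all libraries of number 957, or of number 958, neither was called (adjusted p of 0.202 and 0.305 for Scarb2, and 0.226 and 0.305 for Grn). In tumor-containing groups the microglial marker sum was also higher than in Control, at 733 to 976 CPM in Full Tumor against 414 to 655 CPM; its part in the Scarb2 and Grn differences was not tested.

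**Figure D2:**
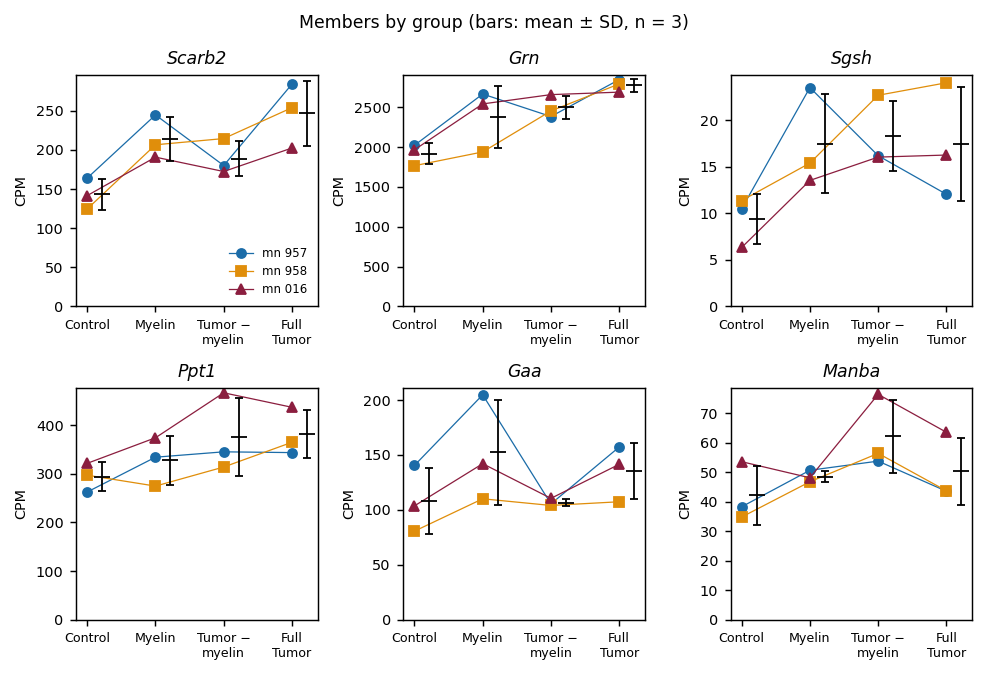
CPM of 6 members (panels) by group (horizontal axis), with a point for each library, lines joining libraries of the same mn number, and bars for the mean ± SD of 3 libraries. Scarb2 runs from 125 to 164 CPM in Control and from 203 to 284 CPM in Full Tumor; Gaa and Manba spread more widely by number.

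The other 6 lysosomal membrane proteins differed less from Control than Scarb2 did. With the block, 7 of 7 membrane proteins were higher in Myelin Alone, 5 of 7 in Tumor without Myelin and 6 of 7 in Full Tumor, at median log2 differences of 0.12, 0.05 and 0.08, against 0.01, 0.00 and 0.01 over all tested genes. Lamp1 and Lamp2 are the abundant glycoproteins that line the lysosomal membrane. Lamp2 was at 1023, 806 and 1148 CPM in Control, 1320.5, 827 and 1135 CPM in Myelin Alone, 1211, 935 and 1391 CPM in Tumor without Myelin, and 1209.8, 1079 and 1404 CPM in Full Tumor, so that the groups overlapped. It was higher in Full Tumor in 3 of 3 numbers, as were 16.2% of all tested genes, by 0.32 ± 0.10 with the block (adjusted p = 0.230). Lamp1 was at 1885, 1387 and 2226 CPM in Control, 2266, 1442 and 1954 CPM in Myelin Alone, 1899.9, 1563 and 2177 CPM in Tumor without Myelin, and 2045, 1808 and 2073 CPM in Full Tumor. These ranges overlap, and Full Tumor differed from Control by 0.13 ± 0.10 with the block (adjusted p = 0.763). Mcoln1, the lysosomal cation channel TRPML1, was at 270.3, 248 and 312 CPM in Control, 327, 225 and 292 CPM in Myelin Alone, 263, 243 and 233 CPM in Tumor without Myelin, and 261, 261 and 241 CPM in Full Tumor, a difference of −0.12 ± 0.12 between Full Tumor and Control. Laptm5, a membrane protein of blood-cell lysosomes, was at 1965, 1469 and 1720.1 CPM in Control and 1787, 1746 and 1921 CPM in Full Tumor, a difference of 0.08 ± 0.10. In Myelin Alone Laptm5 was at 1664, 1585 and 2005 CPM and in Tumor without Myelin at 1663, 1708 and 2026 CPM. Neither gene passed the test, and the groups overlapped for both.

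The luminal enzymes were, with the block, higher than Control in 8 of 8 cases in each of the 3 other groups, with median log2 differences of 0.21 in Myelin Alone, of 0.18 in Tumor without Myelin and 0.30 in Full Tumor. None was called. At an unadjusted p under 0.05, 3, 3 and 4 of the 8 differed, against 6.04%, 9.48% and 9.83% of all tested genes. With group only the counts of higher enzymes were 8, 7 and 8. Under the leave-one-out fits and library totals alone, with the block, 7 or 8 of the 8 were higher in Myelin Alone and in Tumor without Myelin and 8 of 8 in Full Tumor.

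Sgsh, which removes sulfate from heparan sulfate, had the largest log2 differences from Control among the named members. It was at 10.5, 11.4 and 6.32 CPM in Control, 23.5, 15.4 and 13.5 CPM in Myelin Alone, 16.2, 22.7 and 16.0 CPM in Tumor without Myelin, and 12.0, 24.0 and 16.2 CPM in Full Tumor. Every library outside Control lay above every Control library. The log2 difference from Control with the block was 0.93 ± 0.28 in Myelin Alone (edgeR adjusted p = 0.601), 0.98 ± 0.28 in Tumor without Myelin (0.202) and 0.91 ± 0.28 in Full Tumor (0.238). The span of Sgsh overlaps Card14 on the opposite strand.

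Ppt1, the thioesterase that strips palmitate from proteins, was at 263, 297 and 322 CPM in Control, 334, 275 and 374 CPM in Myelin Alone, 345, 314 and 467 CPM in Tumor without Myelin, and 344, 365 and 437 CPM in Full Tumor. Full Tumor lay above Control without overlap. Its log2 difference from Control was 0.37 ± 0.11 with the block (adjusted p = 0.190), and its span overlaps Cap1 on the opposite strand. Manba, the lysosomal beta-mannosidase, was at 38.3, 34.8 and 53.6 CPM in Control, 50.7, 46.8 and 48.2 CPM in Myelin Alone, and 53.8, 56.5 and 76.5 CPM in Tumor without Myelin. Tumor without Myelin lay above Control without overlap, by 0.56 ± 0.15 (adjusted p = 0.139). In Full Tumor it was at 43.6, 43.7 and 63.6 CPM, lower than in Tumor without Myelin in 3 of 3 numbers (−0.31 ± 0.14, adjusted p = 1.0). Of all tested genes 14.1% were lower in 3 of 3 numbers in that contrast. Gaa, the enzyme that degrades glycogen in the lysosome, was at 140.5, 80.6 and 104 CPM in Control and 205, 110.1 and 142 CPM in Myelin Alone. It was higher there in 3 of 3 numbers, as were 13.6% of all tested genes, by 0.49 ± 0.15 (adjusted p = 0.601). In Tumor without Myelin Gaa was at 105, 104 and 110.5 CPM and differed from Control by 0.03 ± 0.15, and in Full Tumor it was at 157, 107 and 141 CPM.

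The interaction asked whether myelin had another effect beside tumor material than by itself, as Full Tumor minus Tumor without Myelin less Myelin Alone minus Control. It was negative for 8 of 8 luminal enzymes with the block, at a median of −0.12 on the log2 scale, and none was called. The same Control libraries enter this term, and low Control values lower it while they raise the differences from Control. The 8 of 8 here is therefore not independent of the 8 of 8 above Control. Sgsh was lowest at −1.0 ± 0.39 and Manba followed at −0.55 ± 0.21 (edgeR adjusted p = 1.0 for both). For Scarb2 and Grn the interaction was −0.20 ± 0.18 and −0.15 ± 0.13 (adjusted p = 1.0 for both), so a larger or smaller myelin effect beside tumor material was not detectable with 3 libraries a group.

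Counts of members without overlap between groups were small. In Full Tumor against Control, 5 of 39 had all 3 libraries higher, where 4.59% of all tested genes did, namely Scarb2, Grn, Sgsh, Ppt1 and Tfe3. The count was 2 for Myelin Alone against Control (background 3.21%), Scarb2 and Sgsh, and 4 for Tumor without Myelin against Control (4.25%), Scarb2, Grn, Sgsh and Manba. Full Tumor lay above Tumor without Myelin for 3 members (2.58%), Grn, Atp6v0c and Atp6v0d1, and above Myelin Alone for 1 (3.63%), Grn. No member lay wholly below Control (3.51% in Full Tumor, 2.57% in Myelin Alone and 3.44% in Tumor without Myelin), and Atp6v1e1 in Full Tumor against Myelin Alone was the single member wholly lower in either remaining contrast (3.12%; 2.45% for Full Tumor against Tumor without Myelin).

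**Figure D3:**
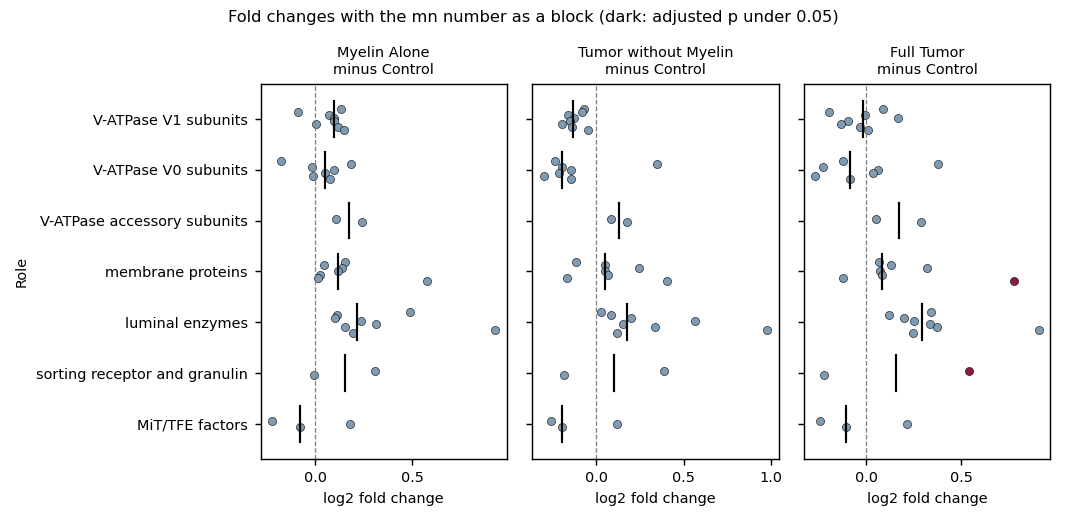
Log2 fold change against Control with the mn number as a block (horizontal axis) for the 37 members with a mean of at least 10 CPM, by role (rows) in 3 contrasts that share the Control libraries (panels). Points are genes, vertical bars are medians of the points, and dark points are Scarb2 and Grn, called in Full Tumor.

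No subunit of the proton pump was called between groups. Of 9 tested V1 subunits, which form the ATP-splitting head, 8 were higher in Myelin Alone than in Control with the block, 0 in Tumor without Myelin and 3 in Full Tumor. Median log2 differences were 0.10, −0.14 and −0.03. The 9 of 9 lower in Tumor without Myelin rested on the Control library of number 016: without it 5 of 9 were lower. Within numbers, the median V1 difference in that contrast was 0.06 in 957, −0.04 in 958 and −0.31 in 016. Control 016 also had the highest neutrophil marker sum, at 266 CPM, and the part of those markers in the V1 differences was not tested. In Myelin Alone the count higher was 5 of 9 without Control 957 or without Control 958. In Full Tumor it ran from 0 without the libraries of number 958 to 5 without Control 016, without Full Tumor 016 or without the libraries of number 016.

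Of the 8 V0 genes, which build the membrane channel, 4 were higher than Control in Myelin Alone, 2 in Tumor without Myelin and 4 in Full Tumor with the block, at medians of 0.02, −0.17 and −0.02. Atp6v0d1, the widely expressed d subunit, was at 395, 369.7 and 459 CPM in Control, 404, 407 and 453 CPM in Myelin Alone, 335, 341 and 374 CPM in Tumor without Myelin, and 456, 385 and 411 CPM in Full Tumor. Its Full Tumor libraries all lay above those of Tumor without Myelin, by 0.25 ± 0.09 with the block (edgeR adjusted p = 1.0). Atp6v0d2, the d subunit enriched in osteoclasts and macrophages, differed from Control by −0.27 ± 0.14 in Full Tumor and −0.30 ± 0.14 in Tumor without Myelin (adjusted p = 0.578 and 0.518). Without the Control library of number 016 the Tumor without Myelin value was −0.15 with the block and 0.10 with group only. Atp6v0a1, an a subunit, was at 245, 139 and 239.7 CPM in Control, 195, 147 and 199 CPM in Myelin Alone, 165, 128 and 237 CPM in Tumor without Myelin, and 191, 149 and 225 CPM in Full Tumor. It differed from Control by −0.18 ± 0.12 in Myelin Alone (adjusted p = 0.948). Atp6v1b2, the B subunit, was at 1477, 1184 and 2179 CPM in Control, 1676, 1131 and 1672 CPM in Myelin Alone, 1589.9, 1213 and 1668 CPM in Tumor without Myelin, and 1275, 1161 and 1736 CPM in Full Tumor. It differed from Control by −0.19 ± 0.11 in Full Tumor (adjusted p = 0.617). For both genes the libraries of number 958 were lowest in 4 of 4 groups. Tcirg1, the a3 subunit of V0, has a symbol outside the rule; it was at 646 to 968 CPM over the libraries and was not called in any contrast.

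Of the factors, Tfeb and Mitf had negative differences from Control in the 3 other groups and Tfe3 positive ones, with no call. Tfe3 was at 131, 130.3 and 104 CPM in Control, 147, 139 and 126 CPM in Myelin Alone, 134, 142 and 119 CPM in Tumor without Myelin, and 153, 138 and 132 CPM in Full Tumor. Its Full Tumor libraries lay above those of Control, and it differed by 0.22 ± 0.09 with the block (edgeR adjusted p = 0.470). Mitf was at 39.3, 45.3 and 26.2 CPM in Control, 32.1, 37.3 and 24.5 CPM in Myelin Alone, 31.7, 37.5 and 22.8 CPM in Tumor without Myelin, and 33.3, 31.6 and 26.6 CPM in Full Tumor. It differed from Control by −0.22 ± 0.15 in Myelin Alone, −0.26 ± 0.15 in Tumor without Myelin and −0.24 ± 0.15 in Full Tumor (adjusted p = 0.933, 0.643 and 0.652). Tfeb was at 56.2, 40.0 and 30.7 CPM in Control, 45.8, 44.9 and 29.3 CPM in Myelin Alone, 42.7, 45.2 and 24.2 CPM in Tumor without Myelin, and 40.8, 54.1 and 25.1 CPM in Full Tumor. Its differences from Control were −0.08, −0.20 and −0.11 with SEs of 0.17. Sort1, the sortilin receptor that binds progranulin, was at 54.5, 70.1 and 29.5 CPM in Control, 50.04, 56.0 and 40.6 CPM in Myelin Alone, 42.8, 55.1 and 33.5 CPM in Tumor without Myelin, and 43.9, 53.4 and 31.2 CPM in Full Tumor. Full Tumor and Control overlapped, with a difference of −0.22 ± 0.15 (adjusted p = 0.711). The spread by number within each group was wider than the difference between these groups.

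The mn number, which the study's labels give without a meaning, went with larger differences among the members than the groups did. This comparison was added after the values had been seen and used edgeR's quasi-likelihood test with group and number in the fit. Any difference among the 3 numbers was called for 24 of 39 members (61.5%), against 34.9% of all tested genes. The median share of a member's log2 CPM variance that went with the number was 61.5%, against 42.8% over all tested genes, and 18.9% went with the group, against 16.9%. In 10 of 39 members the group share was above the number share. That count was not made over all tested genes, and 4 groups take up more random variance than 3 numbers do. The 10 members include Scarb2 and Grn, at 75.2% and 74.0% for the group and 12.0% and 10.5% for the number, as would follow from their having been called between groups. The others were Atp6v1e1 (61.7% against 27.6%), Sgsh (57.3% against 16.3%), Atp6v0d1 (54.8% against 24.2%), Manba, Atp6v0c, Atp6v1g1, Man2b1 and Atp6v0e2. For Atp6v0e2, at a mean of 1.14 CPM, the shares were 18.2% and 11.8%.

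In number 016 against 958, 17 members were called higher and 5 lower, where 21% and 17.5% of all tested genes were. In 958 against 957, 1 was called higher and 12 lower (2.59% and 4.82%), and in 016 against 957, 4 higher and 6 lower (8.47% and 6.5%). The 17 were 5 V1 subunits, 3 V0 subunits, both accessory subunits, 4 luminal enzymes and 3 membrane proteins. For 20 members the 016 library exceeded the 958 library in 4 of 4 groups and for 10 members in 0 of 4. All 4 libraries of number 016 exceeded all 4 of 958 for 13 members and lay below them for 4. These counts by library order were not made over all tested genes, so they do not set the members apart from other genes.

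**Figure D4:**
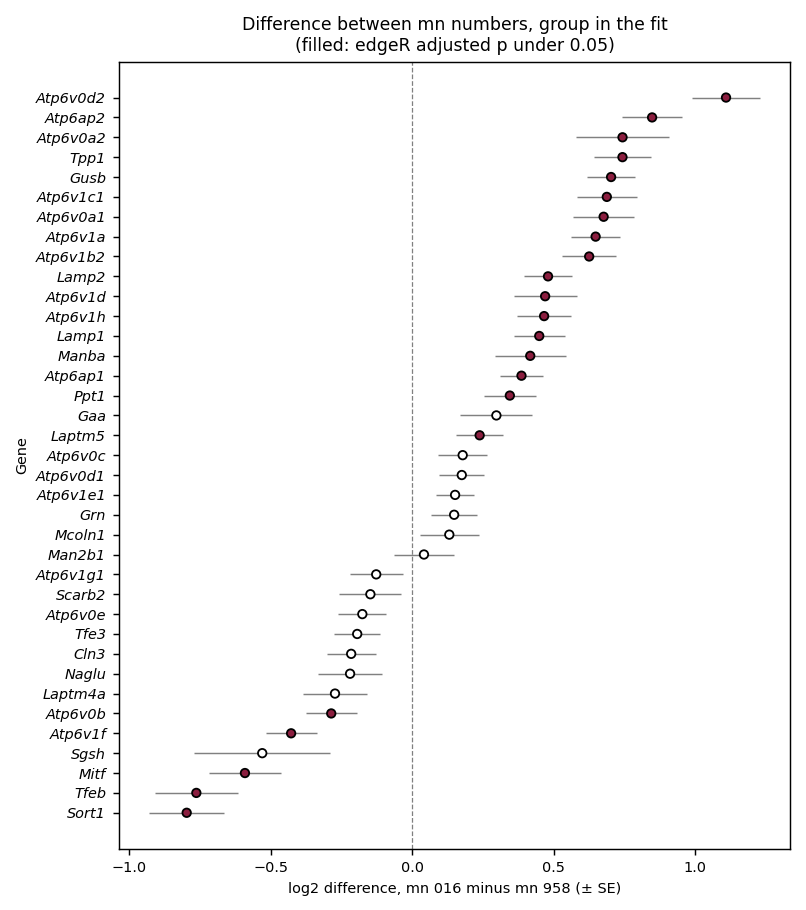
Log2 difference between mn numbers 016 and 958 (horizontal axis, ± SE) for the 37 members with a mean of at least 10 CPM (rows), from a fit with group and number. Filled points passed an edgeR adjusted p of 0.05; they run from Atp6v0d2 at 1.11 down to Laptm5 at 0.24, and from Atp6v0b at −0.29 down to Sort1 at −0.80.

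Atp6v0d2 had the largest difference between 016 and 958 among the members above 10 CPM. It was at 889.6, 587 and 1536 CPM in Control, 1179.5, 591 and 1100.2 CPM in Myelin Alone, 806, 499 and 1081 CPM in Tumor without Myelin, and 749.8, 557 and 1116 CPM in Full Tumor. All 4 libraries of number 958 lay below the other 8, and the difference of 016 from 958 was 1.11 ± 0.12 on the log2 scale (edgeR adjusted p = 8.85e-05). Atp6ap2, the accessory subunit also known as the prorenin receptor, was at 654, 678, 750.2 and 711 CPM in the 016 libraries (Control, Myelin Alone, then Tumor without Myelin, then Full Tumor), against 333, 369.5, 384 and 476 CPM in those of 958. Its 957 libraries were at 468, 662, 508 and 543 CPM. The difference was 0.85 ± 0.10 (adjusted p = 0.000178).

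Gusb, the beta-glucuronidase often used as a lysosomal marker, was at 1832, 1663, 1628 and 1692 CPM in the 016 libraries, in the same order of groups, and 931, 1026, 1089.6 and 1156 CPM in those of 958, a difference of 0.70 ± 0.09 (edgeR adjusted p = 0.00017). Tpp1, a lysosomal peptidase, differed by 0.74 ± 0.10, Atp6v1c1 by 0.69 ± 0.11, Atp6v1a by 0.65 ± 0.09, Lamp2 by 0.48 ± 0.08 and Lamp1 by 0.45 ± 0.09, and all passed. Pump subunits did not all share the direction, for Atp6v1f was lower in 016 than in 958 by −0.43 ± 0.09 (adjusted p = 0.00344) and Atp6v0b by −0.29 ± 0.09 (adjusted p = 0.0263).

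Tfeb and Mitf were lower in 016, where most called pump subunits and enzymes were higher. Tfeb was at 30.7, 29.3, 24.2 and 25.1 CPM in the 016 libraries, in the same order of groups, and at 40.0, 44.9, 45.2 and 54.1 CPM in those of 958. These libraries did not overlap, and the difference was −0.76 ± 0.15 (edgeR adjusted p = 0.0021). Mitf was also lower in 016 than in 958, by −0.59 ± 0.13 (adjusted p = 0.00371), and Tfe3 differed by −0.19 ± 0.08 (adjusted p = 0.0787). Sort1 was at 29.5, 40.6, 33.5 and 31.2 CPM in the 016 libraries, 70.1, 56.0, 55.1 and 53.4 CPM in those of 958, and from 42.8 to 54.5 CPM in those of 957. The 016 libraries lay below all others, and the 016 minus 958 value was a difference of −0.80 ± 0.13 (adjusted p = 0.000903).

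**Figure D5:**
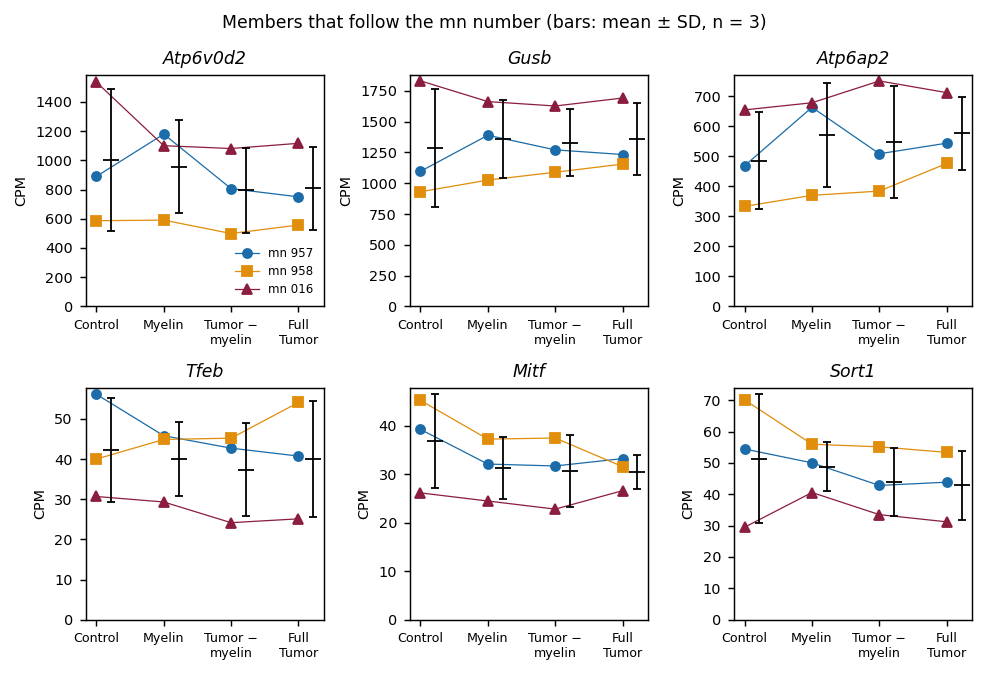
CPM of 6 members by group (horizontal axis), with a line for each mn number and bars for the mean ± SD of the 3 libraries of a group. For Atp6v0d2, Gusb and Atp6ap2 the 016 libraries lie above the 958 libraries in 4 of 4 groups, and for Tfeb, Mitf and Sort1 below them in 4 of 4.

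Other measures moved with the number as well. The summed level of 6 osteoclast markers was 173 to 223 CPM in number 957, 128 to 148 CPM in 958 and 180.3 to 325 CPM in 016. Ctsk was lowest in 958 in 4 of 4 groups, but the other markers of the list did not share this order. Acp5 was highest in 958 in every group but Control, at 30.2 CPM in Myelin Alone, 74.6 CPM in Tumor without Myelin and 65.9 CPM in Full Tumor. Dcstamp was lowest in 958 in Control and Tumor without Myelin only. Over all tested genes, the median difference of 016 from 958 was −0.17, 0.13 and 0.06 in the shortest, middle and longest of 3 classes of exon length, and the members' medians in these classes were −0.13, 0.30 and 0.13. The part of cell make-up, exon length or any handling that the numbers share in the members' differences was not tested.

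Of 92 other genes of the pathway in the table, chosen for lysosomal enzymes, channels, delivery, pump assembly, autophagy and mTORC1 control, 90 were tested. With group only, edgeR called 0 in the contrasts with Control. With the block, 3 rose in Full Tumor against Control, and 2 rose and 1 fell in Tumor without Myelin, while none was called in Myelin Alone. Of all tested genes, 0.634% were called higher in Full Tumor, 0.559% higher and 0.186% lower in Tumor without Myelin, and 0.0373% either way in Myelin Alone. In Full Tumor these were Glb1, the lysosomal beta-galactosidase, at 0.69 ± 0.12 (adjusted p = 0.0224), and the acid phosphatases Acp2 at 0.59 ± 0.11 (0.0370) and Acp5 at 1.08 ± 0.21 (0.0366). Acp2 and Acp5 were also the genes that rose in Tumor without Myelin, by 0.58 ± 0.11 (0.0440) and 1.29 ± 0.21 (0.0175), and Gabarapl1, an ATG8 relative of the autophagosome membrane, fell by 0.56 on the log2 scale (SE 0.09, adjusted p = 0.0233). Fits that leave out a library were not run for these genes.

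Glb1 was at 142, 117 and 184 CPM in Control, 243, 150.3 and 211 CPM in Myelin Alone, 206, 160.5 and 247 CPM in Tumor without Myelin, and 235, 204 and 266 CPM in Full Tumor. Full Tumor lay above Control without overlap. Acp2 was at 161, 122 and 153 CPM in Control, 199, 145 and 154 CPM in Myelin Alone, 232, 215 and 201 CPM in Tumor without Myelin, and 247, 221 and 189 CPM in Full Tumor, so that both tumor groups lay above Control. Gabarapl1 was at 235, 261 and 214 CPM in Control, 219.9, 231 and 169.5 CPM in Myelin Alone, 173, 184 and 129 CPM in Tumor without Myelin, and 201, 195 and 139 CPM in Full Tumor, with both tumor groups below Control.

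Acp5 was at 23.2, 20.1 and 26.5 CPM in Control, 25.5, 30.2 and 22.2 CPM in Myelin Alone, 56.4, 74.6 and 45.1 CPM in Tumor without Myelin, and 50.7, 65.9 and 36.9 CPM in Full Tumor. Both tumor groups lay above both groups without tumor material. Acp5 is also an osteoclast marker, and the other markers of that list above 10 CPM were Ctsk and Dcstamp. Ctsk was at 50.9 to 209 CPM in Control and 57.2 to 106 CPM in Full Tumor, with overlap. Dcstamp was at 53.2, 52.6 and 83.4 CPM in Control and at 17.6, 22.6 and 32.3 CPM in Full Tumor, all below Control and thus opposite in direction to Acp5. By list, the 18 other lysosomal enzymes had 15, 14 and 16 members higher than Control in Myelin Alone, in Tumor without Myelin and in Full Tumor with the block, at medians of 0.20, 0.16 and 0.29. The 21 genes of mTORC1 and nutrient control had 18, 6 and 9 higher, at medians of 0.14, −0.09 and −0.02. The 15 genes of delivery to the lysosome had 14, 9 and 13 higher, the 10 autophagy genes known as TFEB targets 8, 5 and 5, the 16 other membrane and channel genes 12, 6 and 12, and the 10 genes of pump assembly 6, 6 and 6. Of all tested genes, 51.9%, 50.5% and 50.9% were higher in the same contrasts, which share the Control libraries.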

How the data were processed

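RNA was measured in 12 libraries. The authors deposited a table of unnormalized whole-number counts on mm10 per the submitters' processing notes. Per the labels' protocols cDNA was primed with oligo-dT. For the aligner, counter and strand setting, the choice is not given in the sources used here; genes that overlap or have near-identical copies may share reads. CPM (library totals multiplied by TMM factors of 0.965 to 1.06), log2 differences and tests were computed here.

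Groups were compared with the quasi-likelihood test of edgeR (4.0.16, limma 3.58.1, R 4.3.3) with TMM, filterByExpr and group as the only term over 12 libraries. It tested 13414 genes, with two-sided p-values adjusted by Benjamini-Hochberg over them at a threshold of 0.05. SEs were derived from each log2 difference and its F statistic. Whether the mn numbers pair the libraries was checked: deviations from group means correlated across genes in each of 18 pairs that share a number (r of 0.138 to 0.727, median 0.438, above the 0.1 required), so the fit with the number as a block is given beside the first. The biological coefficient of variation was 0.414, and 0.266 with the block. The procedure was tested on simulated data.

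Library totals were 17071673 to 21689624 counts. A count of 0 allows up to 3 counts, or 0.138 to 0.176 CPM, and covers counting error only. Gene positions came from the deposited table, and exon lengths and overlaps from GENCODE on the same build. Alternatives were RLE factors, library totals alone, other count filters, DESeq2 1.42.0, limma-voom, fits on the groups compared only, the block, and fits without each library or number. Members and gene lists were chosen with earlier results of these data known. Named were members called in any test, the 2 highest and 2 lowest differences per contrast with the block among those reaching 10 CPM in the higher group, and 12 genes chosen by name. The genes followed by number were named after their values were seen, as were the members without overlap.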

Additional observations from a re-analysis of the deposited data

How the results depend on the processing

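Members called for Full Tumor minus Control, 0 with group only, numbered 1 with DESeq2, 2 with the replicate block and 2 with the block and library totals alone. Over all tested genes that contrast had 0 calls with group only, 46 with DESeq2 and 109 with the block. The fits that leave out a library or a number gave 0 with group only and 0 to 2 with the block. For any difference among the 4 groups the count was 0 with group only, 1 with the block and 1 with the block and library totals alone (of all tested genes, 0 in the group-only fit and 134 in the blocked one), and leave-one-out fits with the block gave 0 to 1. No other count of members called between groups, blocked or not, moved from 0 under the alternatives run, so the pairing by number changed no other call. Members called lower in number 016 than in 958 were 9 with library totals alone, against 5, and those called higher were 16, against 17. The median difference over all tested genes was −0.055 in that setting, against 0.009. The share of all tested genes called lower there was not counted, so the 9 cannot be read as a result about the members. The Atp6v0d2 difference of Tumor without Myelin from Control was −0.34 with group only and ran from −0.62 to 0.10 in the leave-one-out fits, positive without the Control library of number 016 and never called. The cause of these changes was not tested. Of 95 differences of named members, 50 changed sign under at least 1 alternative. The group-only fit called no member in any contrast, so it held no called difference that could change sign. Depth limits the 3 untested members, with at most 3 counts a library, and bears on Atp6v0e2, tested at 0 to 48 counts a library.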
